A study of Mus musculus with 29 samples.

Results

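The mitochondrial ribosomal protein genes were taken as every gene whose symbol is Mrpl or Mrps followed by a number and at most 1 further letter. Among 23337 genes counted, 76 met this rule, 47 of them Mrpl genes (large subunit) and 29 Mrps genes (small subunit). All 76 are encoded in the nucleus, were counted in every library, and passed the filter on low counts in each of 8 comparisons. The fewest reads any member received in any library was 34.

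The libraries come from mouse embryos at embryonic day 9.0 on a C57BL/6 background that carry a Dll1-YFP lineage mark, which labels cells descended from the presomitic mesoderm, the unsegmented tissue that buds off somites. CTRL (n = 4) and DIR (n = 4) are YFP-positive cells of presomitic mesoderm explants kept in culture, CTRL without and DIR with LDN and SAG, which the labels describe as inducers of sclerotome, the part of a somite that gives rise to the axial skeleton. LDN inhibits BMP receptors and SAG activates Smoothened, the signal transducer of Hedgehog. The 4 SOM groups are uncultured cells, dissociated and sorted by YFP: SOMA (n = 3) from presomitic mesoderm with the newest somite, SOMB (n = 4) from somites 2 to 5, SOMC (n = 4) from somites 6 to 9 and SOMD (n = 4) from somite 10 on, with a last somite of 13 to 16 by replicate in the labels. WT (n = 3) and MUT (n = 3) are trunk tissue whose RNA was extracted directly, with no dissociation or sort. The labels name no allele for MUT; the series title names the long non-coding RNA PEAT. No doses, culture times, embryo numbers or pooling are given, so the p-values measure the spread between these samples, which may be technical.

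Mitochondria translate the few proteins encoded in their own genome on a dedicated ribosome. Its RNAs come from mitochondrial DNA, whereas every protein of it is made in the cytosol from a nuclear gene and imported. The large subunit joins amino acids and holds the exit tunnel, which faces the inner membrane; the small subunit binds the messenger RNA and holds the decoding centre. Respiratory chain subunits are the products, so the members stand between nuclear transcription and oxidative phosphorylation. Symbols follow older naming: the proteins of Mrps30 and Mrps18a sit in the large subunit in structures of the mammalian ribosome, and the protein of Mrps36 is known as a part of the 2-oxoglutarate dehydrogenase complex. Both sets are given by symbol here, as the counts are.

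The members are short genes, often paired with a neighbour. The coding sequence of the principal transcript had a median of 582 bases over the 76 members (range 195 to 1326), against 1212 bases over 20248 coding genes of GENCODE M21 (GRCm38, which the labels call mm10). At least 100 bases of the transcript matched an annotated pseudogene at 90% identity in 32 of 76 members (42.1%), against 18.7% of coding genes. Interspersed repeats were not masked, so a match need not be a copy of the gene. Mrpl35 matched 26 pseudogenes over 8.17% of its transcript, and Mrpl19 17 over 3.46%. At least 40% of the transcript was matched in 13 members (17.1%, against 6.69%). A coding neighbour starting within 1000 bases on the opposite strand, head to head, was present for 25 members (32.9%, against 9.86%). Exons of 12 members overlapped those of another gene (15.8%, against 9.68%). These traits bear on the counting, since a read that also aligns to a copy is not unique, and reads of an unstranded kit cannot be assigned where 2 genes overlap.

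Promoter sequence (250 bases before to 50 after a start, from RefSeq on GRCm38.p6) was matched for 67 members. The letters GCGCA, any base, then GCGC of nuclear respiratory factor 1 (NRF1), a regulator of nuclear genes for mitochondria, occurred on either strand, in any window of a gene with several starts, in 12 of them (17.9%), against 7.65% of 15890 coding genes. CCGGAAG, the core bound by ETS factors such as GABP, occurred in 24 (35.8%, against 13.6%). AAGATGGCG, bound by YY1, occurred in 8 (11.9%, against 2.32%) (overlaps between motifs were allowed). CCAAT occurred in 27 (40.3%, against 42.4%) and the E-box CACGTG in 5 (7.46%, against 9.38%). A match is a run of letters and was not tested as a binding site. Below are the 120 bases before the start of 4 members, 5′ to 3′ on the gene's strand, chosen to show the NRF1 and ETS letters (capitals, the ETS core in either orientation) in genes that differ in level: Mrpl45, among the steadiest members, Mrpl48, among the lowest, Mrpl52, among the most variable, and Mrps22. They lie at chr11:97315596-97315715 (plus strand), chr7:100583131-100583250 (minus), chr14:54426789-54426908 (plus) and chr9:98601680-98601799 (minus), outside exons. Mrpl48 has several RefSeq starts, and the one shown is internal: it lies inside the annotated span of the gene (chr7:100545751-100608301), in an intron of its longer transcripts.
Mrpl45: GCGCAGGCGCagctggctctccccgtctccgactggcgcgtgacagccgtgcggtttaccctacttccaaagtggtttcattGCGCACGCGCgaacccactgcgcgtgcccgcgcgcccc
Mrpl48: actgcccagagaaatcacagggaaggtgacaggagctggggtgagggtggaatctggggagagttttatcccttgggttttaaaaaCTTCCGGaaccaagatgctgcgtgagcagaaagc
Mrpl52: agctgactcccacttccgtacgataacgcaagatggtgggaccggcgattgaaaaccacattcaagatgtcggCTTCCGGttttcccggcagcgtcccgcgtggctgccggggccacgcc
Mrps22: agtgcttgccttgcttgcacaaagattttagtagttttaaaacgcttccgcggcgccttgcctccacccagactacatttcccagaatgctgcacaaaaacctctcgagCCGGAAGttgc

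Library totals ran from 11541131 to 44363411 gene counts, of which 39802 to 149846 fell on the members. Alignments that are not unique made 38.8 to 40.6% of the total in WT and MUT and 15.9 to 25.4% in the other groups, so the unsorted libraries stand apart. Within the cultured groups CTRL1, DIR1 and DIR2 had 22.3 to 25.4%, against 15.9 to 19.5% in the other 5. SOMC1 and SOMC4 differed by little more than sampling noise (chi-square per gene 1.95), as did SOMD1 and SOMD4 (1.91), and results are also given with each pair summed. Sclerotome markers rose along the series from 1.18 to 9.16 CPM (counts per 1000000 reads, summed over the list) in SOMA to 93.6 to 105 in SOMD, and presomitic markers fell from 530 to 749 to 13.2 to 20.2. DIR held 9.13 to 46.5 CPM of the sclerotome markers and CTRL 1.51 to 4.90. Markers of blood were abundant in unsorted tissue only: 1025 to 2463 CPM in WT and 1567 to 2885 in MUT, against 3.77 to 80.9 in all sorted groups, with 1 of 7 blood genes at 0 in every group.

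The 76 members together took 0.224 to 0.239% of the counts in WT, 0.274 to 0.276% in MUT and 0.292 to 0.475% in the other groups. Summed over the 47 large subunit genes, levels (CPM after TMM scaling, mean ± SD) were 2419 ± 385.7 in CTRL, 2718 ± 649.2 in DIR, 2667 ± 239.8 in SOMA and 2755 ± 414.7 in SOMB. They were 2512 ± 265.3 in SOMC, 2426 ± 209 in SOMD, 1774 ± 20.54 in MUT and 1492 ± 85.85 in WT. The 29 small subunit genes summed to 1179 ± 177.3, 1301 ± 279.1, 1274 ± 98.27 and 1332 ± 198.5 in the first 4 groups, and to 1230 ± 97.95, 1192 ± 73.79, 799.3 ± 8.02 and 695.5 ± 19.55 in the last 4. Among sorted groups the order SOMB, DIR, SOMA, SOMC, SOMD, CTRL of the large subunit means held no neighbours that differed by more than their SD. MUT and WT were the 2 lowest groups for both subunits, and no library of either overlapped a library of another group. The ratio of large to small sums kept to 1.97 to 2.26 in all 29 libraries.

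**Figure D1:**
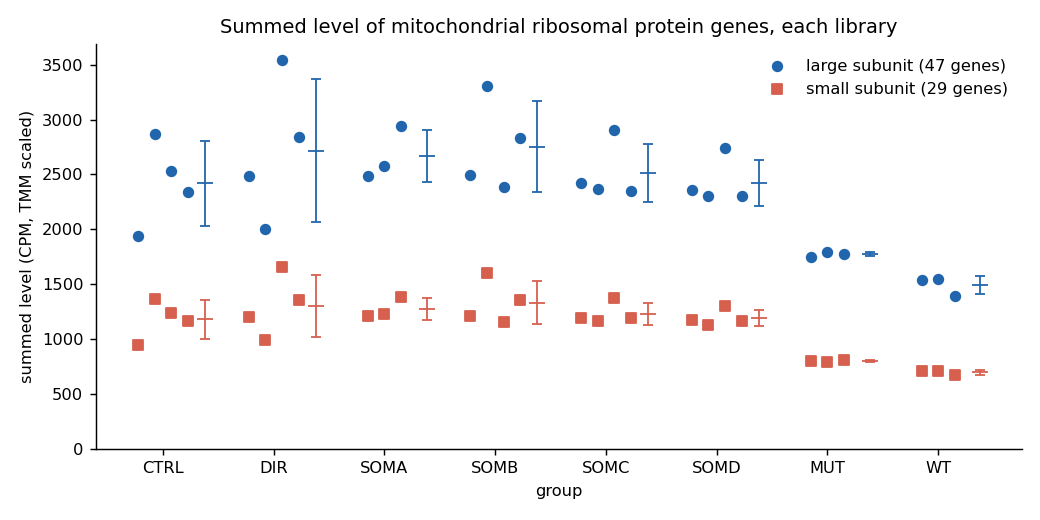
Summed level (CPM, TMM scaled; vertical axis from 0) of the 47 large (circles) and 29 small (squares) subunit genes in each of 29 libraries, by group, with mean and SD at the right of each group. WT (large sum 1492 ± 85.85) and MUT (1774 ± 20.54) lie below every library of the 6 sorted groups, and both subunits follow each other.

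Levels of single members were compared per kilobase of the longest transcript, as the mean over the 8 group means. Mrpl12, a protein of the stalk that recruits translation factors, was highest at 99.3 CPM per kb. It was followed by Mrps21 at 78.3, Mrpl20 at 77.2, Mrpl28 at 62.6 and Mrpl18 at 55.9. Mrps25 (6.30), Mrps10 (6.31), Mrpl48 (6.38), Mrps26 (7.65) and Mrpl17 (8.29) were lowest, so the members spanned more than 10-fold. Transcript choice moved some ranks: over the principal transcript only 3 of the same 5 genes were the 5 highest, Mrpl52 rose from rank 15 to rank 3, and Mrps10 from 75 to 51. Of the exon sequence of Mrps25 58.2% overlaps Nr2c2, so its reads may not all be its own.

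Across groups Mrps30, Mrps2 and Mrpl45 were the steadiest. Mrps30 lay between 52.4 and 77.6 CPM in all 29 libraries, and its 8 group means spanned 0.21 on the log2 scale. Mrps2, a homologue of a bacterial small subunit protein, spanned 0.24, and Mrpl45, which contacts the inner membrane at the tunnel exit, spanned 0.25. The most variable were Mrps33 (4.43), Mrps36 (4.24), Mrps21 (3.99), Mrpl52 (3.94) and Mrpl23 (3.82). Most of their range comes from the unsorted groups. Over the 6 sorted groups alone the group means spanned 0.61 for Mrps33, 0.67 for Mrps36, 0.19 for Mrps21, 0.33 for Mrpl52 and 0.85 for Mrpl23, the widest of the 76 members there.

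**Figure D2:**
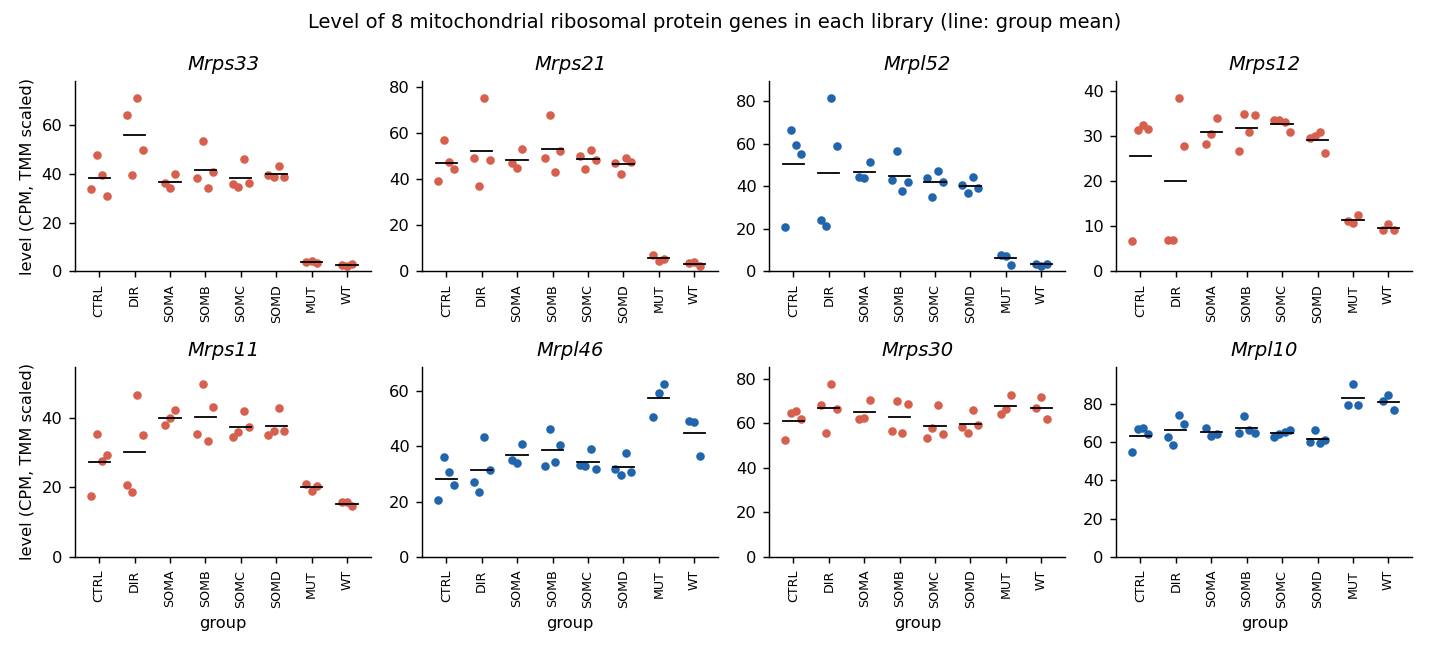
Level (CPM, TMM scaled; each vertical axis from 0) of 8 members in every library, points by group with a line at the group mean. Mrps33, Mrps21 and Mrpl52 were lowest in MUT and WT, Mrps12 and Mrpl52 were also low in CTRL1, DIR1 and DIR2, Mrpl46 and Mrps11 from a shared start region went opposite ways in WT, and Mrps30 kept between 52.4 and 77.6 CPM.

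WT trunk tissue and the 15 uncultured sorted SOM libraries were compared in a fit of all 29 libraries. Of 76 members 59 were lower in WT and 2 were higher (edgeR quasi-likelihood test, Benjamini-Hochberg adjusted p under 0.05). Of 15223 genes tested 32.1% were lower and 33.3% higher by the same rule. The median log2 fold change of the members was -0.98, and that of all genes was 0.00; it was above 0 in 9 members (50.1% of all genes). Levels did not overlap between WT and SOM for 59 members that were lower (24.8% of all genes) and 1 that was higher (22.1%). Beyond 2-fold lay 38 members, 23 of the large and 15 of the small subunit. Without scaling between libraries the median of all genes shifted to 0.13 and that of the members to -0.85. Tissue makeup, dissociation, sorting, sex and the library set all differ between WT and SOM and cannot be told apart. Xist was at 3.14 to 11.6 CPM in the WT libraries and at 284 to 1212 in the SOM libraries. Fewer cells of a type and less RNA per cell cannot be told apart in bulk samples either. Beside the blood markers, all 6 neural tube markers (219 to 320 CPM summed in WT, 21.3 to 92.0 in SOM), 6 of 6 of endothelium (336 to 346, against 48.4 to 242), 4 of 4 of notochord and floor plate (46.1 to 60.5, against 2.01 to 6.04), 4 of 4 of gut endoderm (34.5 to 88.5, against 3.52 to 8.22) and 3 of 3 of neural crest (33.8 to 48.9, against 1.49 to 6.18) were higher in WT. Of 8 dissociation and stress genes 7 were lower (median -3.91), with 42.9 to 53.8 CPM in WT and 124 to 745 in SOM. Their part in the fall of the members was not tested.

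Mrps33 (chr6:39801804-39810988, minus strand) fell furthest. Its level was 2.60, 2.24 and 2.95 CPM in WT1 to WT3, against 34.1 at the lowest, 38.8 at the median and 53.6 at the highest of the SOM libraries. Every WT library was below every SOM library by more than 10-fold, and the log2 fold change was -3.90 ± 0.20 (SE, edgeR adjusted p = 9.34e-15). Mrps21 (chr3:95862634-95871519, minus strand), which has a bacterial counterpart, was at 3.68, 4.06 and 2.33 CPM in WT and at 42.3 to 67.7 in SOM, with a median of 48.2. Its log2 fold change was -3.87 ± 0.22 (edgeR adjusted p = 1.31e-13). Mrpl52 (chr14:54426909-54429756, plus strand), whose ETS letters are printed above, was at 3.63, 2.66 and 3.56 CPM in WT and averaged 43.2 in SOM (log2 fold change -3.71 ± 0.40). Mrps36, the member placed by its protein in the 2-oxoglutarate dehydrogenase complex, was at 1.02, 2.15 and 1.85 CPM in WT and at 17.7 to 31.5 in SOM (log2 fold change -3.77 ± 0.28). The next furthest member, Mrpl27, had a log2 fold change of -3.01, so these 4 stood apart from the other 72.

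Mrpl51, Mrps10 and Mrpl42 fell by less and with small errors. Mrpl51 averaged 11.3 ± 1.66 CPM in WT and 60.0 ± 6.01 in SOM (log2 fold change -2.39 ± 0.17). Mrps10, a small subunit head protein, averaged 7.58 ± 0.07 and 29.6 ± 2.34 (-1.95 ± 0.14). Mrpl42 averaged 18.8 ± 2.65 and 71.3 ± 8.70 (-1.91 ± 0.13). In none of these 3 did a WT library reach a SOM library. Mrpl12, the member with the highest level, was at 64.4, 57.7 and 45.2 CPM in WT and averaged 162 in SOM (-1.53 ± 0.25). The paralogues Mrps18a, Mrps18b and Mrps18c, whose related proteins hold distinct places in the ribosome, fell by 0.91, 1.39 and 1.38 on the log2 scale.

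The 2 members that were higher in WT differ in how far they can be read. Mrpl10, which anchors the stalk that carries Mrpl12, was at 81.6, 84.8 and 77.1 CPM in WT and at 59.7 to 73.9 in SOM (log2 fold change 0.34 ± 0.07, edgeR adjusted p = 1.486e-04), with no overlap. It passed under all 28 alternatives tried. Mrpl46 was at 49.2, 48.7 and 36.6 CPM in WT and at 29.5 to 46.3 in SOM (0.35 ± 0.15, edgeR adjusted p = 0.0370), with overlap, and passed under 25 of 28. Mrpl46 and Mrps11 form a head-to-head pair on chromosome 7 whose annotated starts overlap by 412 bases. Mrps11, a small subunit platform protein, went the other way: it was at 15.7, 15.8 and 14.5 CPM in WT and its log2 fold change was -1.33 ± 0.21 (edgeR adjusted p = 4.444e-06). Among SOM libraries the levels of this pair were alike (Mrpl46 34.9, 34.1 and 40.9 CPM and Mrps11 37.8, 39.8 and 42.2 CPM in the 3 SOMA libraries), so the same start region carried near equal levels in sorted cells and a more than 2-fold difference in WT. Levels here are per library and not per kilobase; per kilobase the means over the 8 groups were 33.5 for Mrpl46 and 29.4 for Mrps11, and over the 6 sorted groups 29.6 and 33.5.

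Other head-to-head members had values near to or far from those of their partners, and the pairs named here were chosen after their values were seen. Mrpl51 fell by 2.39 on the log2 scale while Ncapd2, a condensin subunit starting 100 bases away, was at 0.17 ± 0.07. Mrpl44, an RNase III-like protein of the large subunit, was at 0.22 ± 0.10 (not passing), and Wdfy1 opposite it fell by 1.22. In the other direction Mrpl36 fell by 0.57 and its partner Ndufs6 of complex I by 2.18, and Mrpl49 fell by 0.82 and Fau, which encodes a cytosolic ribosomal protein, by 3.78. Closer values were seen for Mrps12 (-1.69 ± 0.40) with Sars2 (-1.43 ± 0.23), a mitochondrial tRNA synthetase, and for Mrpl32 (-1.30 ± 0.16) with Psma2 (-1.001 ± 0.14), a proteasome subunit. The difference between member and partner was not tested.

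Of the 15 members that did not pass, the following had values near 0, chosen after these were seen: Mrpl45 at 0.00 ± 0.10, Mrps34 at -0.00 ± 0.21, Mrpl43 at 0.03 ± 0.21 and Mrpl1 at -0.04 ± 0.12. Mrps30 was at 0.13 ± 0.09. Mrpl20, among the highest members per kilobase, was at -0.17 ± 0.14, with 60.8, 59.4 and 60.7 CPM in WT. Mrps2 passed with a small change, at 56.1, 57.9 and 60.8 CPM in WT and a mean of 65.2 in SOM (-0.15 ± 0.06, edgeR adjusted p = 0.0275). Levels of Mrpl20, Mrps2 and Mrpl45 in WT overlapped those in SOM.

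Short members fell furthest. The 13 members with a coding length up to 400 bases had a median of -1.83 on the log2 scale, the 27 up to 600 bases -1.30, the 16 up to 800 bases -1.08, the 16 up to 1200 bases -0.38 and the 4 longer ones -0.07. All genes of the same classes had medians of -0.90, -0.47, -0.25, -0.09 and 0.14, so each class of members lay below the genes of its coding length. By length of the whole principal transcript the gap was narrower in short members. Up to 800 bases the medians were -1.87 for members and -1.48 for all genes, and up to 1200 bases -0.91 and -0.86. Up to 2000 bases they were -0.70 and -0.38, and above that -0.75 and 0.15. Spearman's rho of fold change with coding length was 0.545 over the 76 members and 0.262 over 14269 genes. With the length of the principal transcript it was 0.419 and 0.389, so the members were nearly like all genes there. Both are taken across genes that are not independent and share all libraries. Members with at least 40% of the transcript matched by pseudogenes had a median of -1.91, and all genes of that kind -0.86. With fitted offsets for length and GC content the median of the members was -0.49 and that of all genes 0.09, with 49 members lower (27.5% of genes) and 13 higher (37.8%). Of the 4 furthest members, Mrps21 had 54.1% of its transcript matched by pseudogenes, Mrps36 44.1% and Mrps33 29.0%, and Mrpl52 had none. The part of transcript length, copies, library set or blood cells in the fall was not tested.

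**Figure D3:**
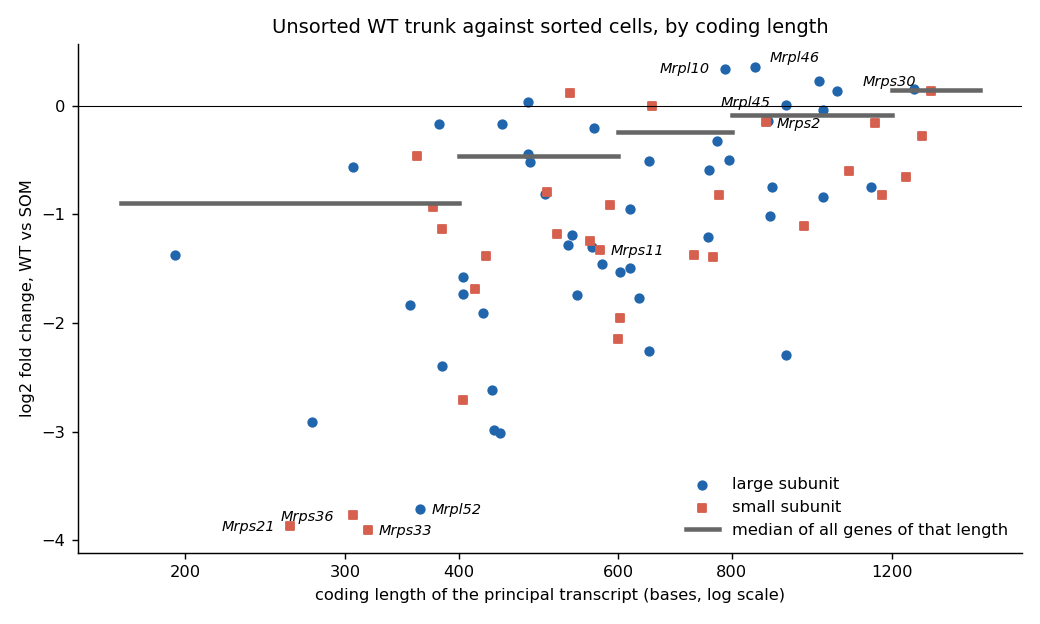
Log2 fold change of WT against SOM (vertical) over the coding length of the principal transcript in bases (log scale) for the large (circles) and small (squares) subunit members, with grey bars at the median of all genes of each length class. Mrps33, Mrps21, Mrps36 and Mrpl52, all under 400 bases, lie lowest, and the median of the members is below the grey bar in each class (-1.83 against -0.90 up to 400 bases).

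Lists of genes that work with the members differed in how many were lower in WT. Of 6 mitoribosomal proteins with other symbols 5 were lower in WT, among them Dap3 (-0.92 ± 0.09), the GTP-binding protein of the small subunit, Aurkaip1 (-1.20 ± 0.16) and Ict1 (-0.99 ± 0.16), a release factor built into the large subunit. Of 27 assembly factors 15 were lower and 6 higher (median -0.31), and of 14 mitochondrial translation factors 5 were lower and 4 higher (median -0.03). Tufm, the elongation factor that brings aminoacyl-tRNA to the ribosome, fell from 144 to 32.5 CPM (-2.14 ± 0.13). The 19 mitochondrial aminoacyl-tRNA synthetases held 4 lower and 7 higher, with a median of 0.02. The respiratory chain, part of which the mitoribosome makes, had lower medians than the members: 31 of 35 complex I genes (median -1.23), 14 of 19 genes of complexes III and IV (-1.64) and 13 of 15 of ATP synthase (-1.51) were lower. Of 77 cytosolic ribosomal protein genes 74 were lower, with a median of -2.90. Many of these lists are short genes too, and the differences between the lists were not tested.

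Of 16 regulators of mitochondrial gene expression 4 were higher in WT and 5 lower, with a median of -0.02. Of all genes 33.3% were higher and 32.1% lower. Nrf1 fell by 0.20 (log2, edgeR adjusted p = 0.00216), Gabpa rose by 0.30 (edgeR adjusted p = 0.0188) and Pprc1, a coactivator of both, rose by 0.37. Yy1 (0.10) and Myc (0.21) did not pass, Mycn rose by 0.32 (edgeR adjusted p = 0.0208), and Esrra, a nuclear receptor that acts on genes of energy metabolism, fell by 1.39.

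MUT and WT, both unsorted trunk tissue, were compared in a fit of their own. By the threshold 2 of 76 members were higher in MUT and 0 were lower, against 0.331% of 14485 genes higher (48) and 0.0069% lower (1). The members leaned one way: 66 of 76 log2 fold changes were above 0 (49.4% of all genes), with a median of 0.26, against -0.00 over all genes. In 46 members every MUT library was above every WT library (11.9% of all genes), and in 0 every MUT library was below (10.1%). The unadjusted p was under 0.05 for 41 members and for 15.45% of genes.

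Mrpl41 (chr2:24974117-24975098, minus strand), a large subunit protein with no bacterial counterpart, was at 19.98, 18.1 and 19.2 CPM in MUT1 to MUT3 and at 11.9, 9.97 and 10.7 CPM in WT1 to WT3. The groups did not overlap, and the log2 fold change was 0.81 ± 0.12 (edgeR adjusted p = 0.0404). Mrpl39 (chr16:84717576-84735742, minus strand), which resembles threonyl-tRNA synthetases without being an enzyme, was at 61.6, 54.0 and 57.9 CPM in MUT and at 40.7, 40.7 and 39.0 CPM in WT. Its log2 fold change was 0.52 ± 0.08 (edgeR adjusted p = 0.0427), again with no overlap. Next in order came Mrpl42, at 0.68 ± 0.12 (edgeR adjusted p = 0.0537), and Mrpl12, at 0.61 ± 0.12 (edgeR adjusted p = 0.0598), both chosen here after their values were seen and both without overlap between groups.

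The call of Mrpl41 and Mrpl39 depends on the model. No member passed when MUT1, MUT2, MUT3, WT1 or WT2 was left out, or with offsets for length and GC content, all 29 libraries in 1 fit, or the level of Xist as a term; 4 passed without WT3, and 17 with DESeq2 (4.83% of genes higher). With the replicate number as a block 9 passed (1.88% of genes higher). MUT2 and MUT3 had 1921 and 1920 CPM of Xist and MUT1 2.30, the WT libraries 3.14 to 11.6, so sex differs between the groups. Short genes leaned to MUT in general: up to 400 bases of coding length the median of all genes was 0.18 and that of the members 0.39, and above 1200 bases they were -0.04 and 0.09. With the offsets the median of the members was 0.14 to 0.15.

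Some related lists leaned the same way in MUT and others did not. Of 77 cytosolic ribosomal protein genes 13 were higher (median 0.46), as were 3 of 35 complex I genes (Ndufb3, Ndufs6 and Ndufs7, median 0.37). Atp5j2 of ATP synthase (0.89 ± 0.12), Cox6b1 of complex IV (0.73 ± 0.12) and Tomm7 of the import pore (0.67 ± 0.09) passed as the sole members of their lists. No assembly factor, translation factor, tRNA synthetase or regulator passed. Their medians were 0.12 over 27 assembly factors, 0.01 over 14 translation factors (8 positive), 0.07 over 19 tRNA synthetases (12 positive) and 0.01 over 16 regulators (9 positive).

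DIR and CTRL cells differ in the culture with LDN and SAG. No member passed in either direction by edgeR or by DESeq2, with 9 at an unadjusted p under 0.05. Of 14190 genes 0.303% were higher (43) and 0.444% lower (63) by edgeR, and 1.35% were higher by DESeq2. Positive log2 fold changes were found for 60 of 76 members (48.3% of all genes), with a median of 0.13 (all genes -0.01). DIR libraries were all above CTRL libraries in 3 members (4.74% of all genes), Mrpl47, Mrpl24 and Mrps17, and all below in 0 (4.4%). Some related lists leaned the same way, with no gene passing. Positive were 64 of 77 cytosolic ribosomal protein genes (median 0.18), 31 of 35 of complex I (0.17) and 13 of 15 of ATP synthase (0.21). Translation factors (7 of 14, median 0.02) and tRNA synthetases (8 of 19, -0.04) did not.

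Mrps18c (chr5:100798627-100804471, plus strand), the paralogue closest to the bacterial protein, had the lowest p. It was at 57.5, 39.4, 70.1 and 48.1 CPM in DIR1 to DIR4 and at 30.5, 41.9, 34.8 and 32.8 CPM in CTRL1 to CTRL4. DIR2 lay below CTRL2, so the groups overlapped; the log2 fold change was 0.61 ± 0.19 (edgeR adjusted p = 0.207). Its paralogues Mrps18a (-0.11 ± 0.32) and Mrps18b (0.09 ± 0.12) did not pass either. Mrpl47, at the tunnel exit, was at 49.3, 34.5, 47.3 and 33.5 CPM in DIR and at 30.3, 32.2, 28.1 and 24.5 CPM in CTRL (0.51 ± 0.17, edgeR adjusted p = 0.221). Mrpl35 had a log2 fold change of 0.42 ± 0.15 (edgeR adjusted p = 0.258). With all 29 libraries fitted together 7 members were higher (5.26% of 15223 genes) and 0 lower (4.47%), these 3 among them, with edgeR adjusted p of 0.0192, 0.0245 and 0.0363.

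Within the cultured groups, libraries above and below a share of 20% of alignments not unique stood apart, a cut chosen after seeing the data. Summed levels did not follow the share in order within DIR or CTRL. In CTRL1, DIR1 and DIR2, the 3 libraries over 20%, the members had a median log2 difference of -0.44 from the other libraries of the same group, against 0.02 over 12646 genes. Negative differences were found for 71 of 76 members (93.4%, against 48% of genes), with -0.45 for the large and -0.43 for the small subunit. In 33 members (43.4%, against 21.4% of genes) all 3 libraries lay below all 5 others, and in 1, Mrpl50, all 3 lay above (1.32%, against 20.1%). Presomitic markers lay lower in the same split. Counts in the lists that follow stand beside the 21.4% of all genes below in all 3 libraries and the 20.1% above, so 2 of 8 in a list is near those shares. The 8 presomitic markers summed to 215 to 356 CPM in the 3 libraries and 428 to 665 in the 5 others, with 4 of 8 genes below in all 3, among them Hes7 (4.43, 6.45 and 7.29 CPM, against 35.6 to 56.8) and Dll3 (30.1, 48.6 and 55.3, against 84.8 to 158). Of 6 somite markers 2 lay below in all 3, among them Uncx (3.03, 9.26 and 4.99 CPM, against 20.2 to 52.5), although the sums overlapped (352 to 605 and 393 to 620). Of 8 dissociation and stress genes 2 lay below, among them Junb (1.37, 0.69 and 1.18 CPM, against 14.4 to 34.1), and 2 above, with sums of 79.3 to 147 and 115 to 267. Of the other lists, 2 of 6 neural tube markers and 2 of 4 of notochord and floor plate lay below in all 3. So did 1 of 6 of endothelium, 1 of 4 of intermediate mesoderm and 1 of 4 of gut endoderm. No marker of the other lists lay above in all 3. The part of the markers in the members' gap was not tested. These are differences between libraries and not conditions, and no test was made.

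Mrps12 (chr7:28739641-28741820, minus strand), the decoding centre protein, showed the largest gap. It was at 6.71 CPM in CTRL1, 6.92 in DIR1 and 6.94 in DIR2, and at 31.3, 32.6, 31.5, 38.4 and 27.7 CPM in CTRL2, CTRL3, CTRL4, DIR3 and DIR4, a mean log2 difference of -2.17. Mrpl34 followed with -1.90 and Mrps24 and Mrpl52 with -1.56. Mrpl52 was at 20.6, 24.2 and 21.5 CPM in the 3 libraries and at 55.3 to 81.3 in the others. The gap was widest in GC-rich members: above 55% GC the median was -1.02 over 17 members and -0.55 over all genes, and up to 45% it was -0.22 over 11 members and 0.37 over all genes.

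**Figure D4:**
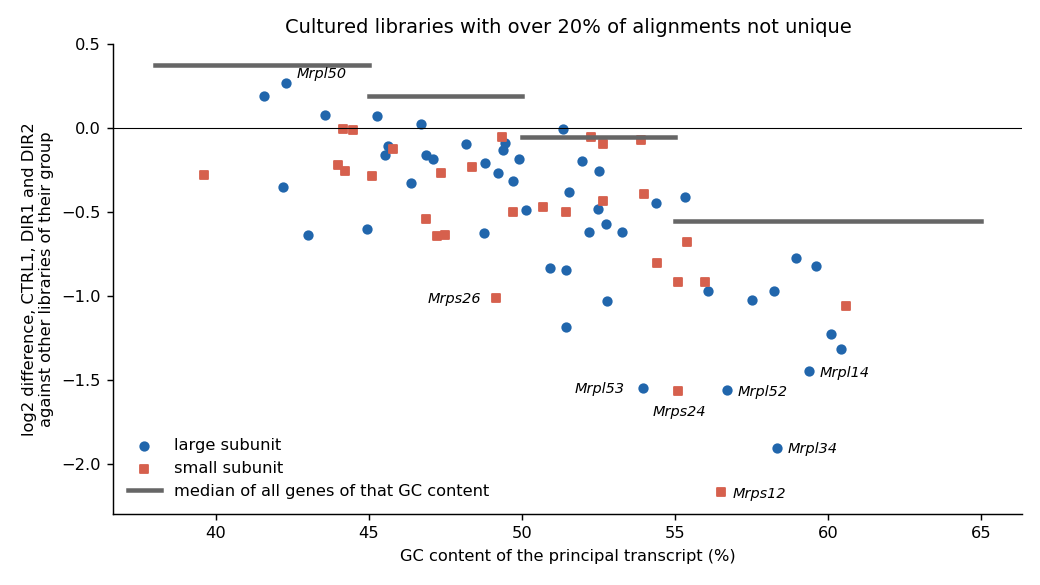
Log2 difference (vertical) between CTRL1, DIR1 or DIR2 and the other libraries of the same group, averaged over CTRL and DIR, over the GC content of the principal transcript (%), for the large (circles) and small (squares) subunit members; grey bars are medians of all genes in each GC class. The median of the members is below the grey bar in each class (-1.02 against -0.55 above 55% GC), and Mrps12 lies lowest at -2.17.

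With the library sets taken into account the medians were higher in DIR by more, and no member passed. Within the 5 libraries under 20% the log2 fold change was positive in 75 of 76 members (median 0.32, all genes -0.01), and 0 passed, against 0.734% of genes higher and 1.04% lower. Within the 3 over 20%, with 1 CTRL library and no test, it was positive in 70 (median 0.21, all genes 0.00). With the share as a term it was positive in 74 (median 0.35, all genes 0.00) and 0 passed. Leaving out single libraries moved the median between 0.00 and 0.27. Of the regulators none passed: Myc averaged 44.95 CPM with LDN and SAG and 78.7 CPM without them (-0.81 ± 0.23, edgeR adjusted p = 0.185), and Mycn (-0.44), Pprc1 (-0.51) and Nrf1 (0.01) did not pass.

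Along the somite series the members kept nearly the same level while presomitic and sclerotome markers changed strongly. From SOMA to SOMB 0 members passed by edgeR and by DESeq2, with 0 at an unadjusted p under 0.05, against 4.13% of 13790 genes higher and 4.55% lower. The median was 0.04 with 53 members positive (51.8% of all genes). Its sign was not stable: with the percentage of reads outside any feature in the model it was -0.04, with 29 members positive. Mrps26 (0.20 ± 0.10), Mrpl37 (-0.17 ± 0.09) and Mrpl16 (0.27 ± 0.14) had the lowest p, each with an edgeR adjusted p of at least 0.3148. From SOMB to SOMC 0 passed by either tool (background 0.486% higher and 0.341% lower), with 4 at an unadjusted p under 0.05. Here 6 of 76 members were positive (50.9% of all genes) and 70 negative, with a median of -0.12, led by Mrps27, Mrps28 and Mrpl32. When the percentage of reads outside any feature entered the model, that median was -0.02 and 29 members were positive. With each near-identical pair of libraries summed, 11 of 13711 genes were higher and 4 lower in place of 67 and 47. In that setting 0 members passed, and the median was -0.11 with 7 members positive. From SOMC to SOMD 0 passed by either tool and 0 had an unadjusted p under 0.05 (background 1.26% higher and 1.07% lower), with a median of -0.04 and 25 members positive (49.9% of all genes), led by Mrpl36, Mrps12 and Mrps36. With the pairs summed, 20 of 13711 genes were higher and 31 lower in place of 174 and 148, and 0 members passed.

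Across the whole series, SOMD against SOMA, 2 small subunit genes fell, against 8.92% of genes lower and 10.8% higher, and no member rose. Mrps36 was at 20.1, 18.0, 21.8 and 17.7 CPM in SOMD1 to SOMD4 and at 25.5, 27.6 and 26.4 CPM in the SOMA libraries. The groups did not overlap, with a log2 fold change of -0.43 ± 0.12 (edgeR adjusted p = 0.0142). Mrps28 (chr3:8802146-8923918, minus strand), related to bacterial protein S1, was at 19.4, 20.4, 22.8 and 17.0 CPM in SOMD and at 24.0, 28.6 and 30.2 CPM in SOMA (-0.46 ± 0.14, edgeR adjusted p = 0.0270). DESeq2 also called 2 members lower. Levels did not overlap for 5 members, all lower (14.4% of genes), 12 of 76 were positive (50.1% of all genes), and the median was -0.10. The number lower was 0 without SOMA3, SOMA4 or SOMD4, 1 without SOMD1 and 3 without SOMD3. It was 1 with the near-identical libraries summed, 0 with all libraries fitted together or with only the libraries of a low share of reads outside any feature, and 4 with that share in the model. The comparisons along the series share libraries and are not independent of each other.

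In the same comparison 2 of 24 import genes fell, among them Timm50 (-0.68 ± 0.11), a receptor of the inner membrane translocase, and 2 of 35 complex I genes, Ndufa1 (-0.38 ± 0.11) and Ndufs1 (-0.16 ± 0.05). Both counts are below the 8.92% of all genes that were lower. No cytosolic ribosomal protein passed in this comparison or between neighbouring SOM groups. By sign, some related lists leaned as the members did. From SOMB to SOMC 2 of 77 cytosolic ribosomal protein genes were positive (median -0.11). So were 1 of 35 complex I genes (-0.10) and 1 of 24 import genes (-0.12). Assembly factors leaned less (9 of 27 positive) and regulators the other way (10 of 16). From SOMA to SOMB 76 of 77 cytosolic ribosomal protein genes were positive (median 0.09). Of the regulators Mycn fell from 188 CPM in SOMA to 129 in SOMB (-0.56 ± 0.09) and Myc rose from 57.9 to 91.4 (0.65 ± 0.12).

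**Figure D5:**
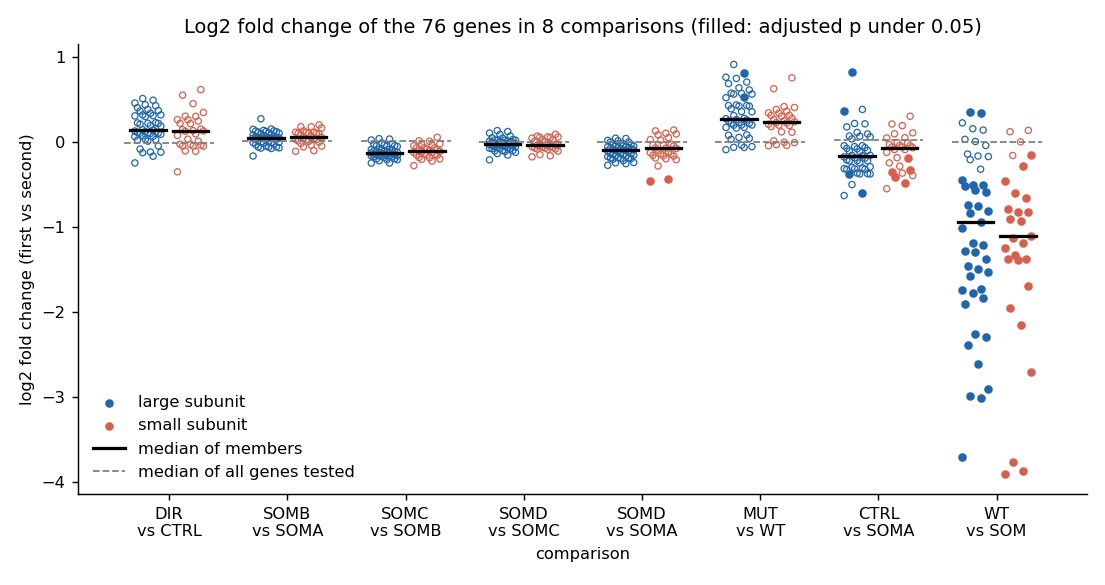
Log2 fold change (vertical) of the 76 members in 8 comparisons, large subunit at the left and small at the right of each, filled where the edgeR adjusted p is under 0.05, with a black line at the median of the members and a dashed line at the median of all genes tested. The members lie close to 0 along the somite series, mostly above 0 in MUT against WT (66 of 76) and far below in WT against SOM (median -0.98).

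CTRL cells come from cultured explants of presomitic mesoderm, and freshly sorted SOMA cells from presomitic mesoderm with the newest somite. Of 6 endothelium markers 3 were higher in CTRL and 0 lower (median 1.265), and of 8 presomitic markers 0 were higher and 3 lower (median -0.75). Culture, starting tissue, cell makeup and library set cannot be told apart here. In the fit of all libraries 2 members were higher in CTRL and 7 lower, against 16% of 15223 genes higher (2429) and 13.4% lower (2043). By library totals without scaling 2933 genes were higher and 1481 lower, with 4 members each way. The median of the members was -0.12 (large -0.16, small -0.07, and by library totals -0.09 and 0.01), and levels did not overlap for 13 lower (15.4% of genes) and 2 higher members (18.4%). Both that rose are large subunit genes, as are 2 of the 7 that fell. Mrpl23 (chr7:142532686-142540747, plus strand) was at 37.8, 65.03, 60.5 and 55.9 CPM in CTRL and at 28.2, 30.0 and 35.0 CPM in SOMA (0.82 ± 0.22, edgeR adjusted p = 0.00661). Mrpl24 was at 40.2, 44.8, 38.7 and 44.8 CPM in CTRL and at 35.2, 28.9 and 34.2 CPM in SOMA (0.36 ± 0.09, edgeR adjusted p = 0.00467). For Mrpl24 43.6% of the exon sequence overlaps Rrnad1, and for Mrpl23 78.0% of the transcript is copied in a pseudogene.

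The 7 that fell were Mrpl20, Mrps25, Mrps6, Mrpl19, Mrps22, Mrps18b and Mrps2. Mrpl20 was at 36.7, 59.0, 48.9 and 41.4 CPM in CTRL and at 65.1, 68.1 and 77.3 CPM in SOMA (-0.60 ± 0.17, edgeR adjusted p = 0.0104). CTRL1, the library with the highest share of alignments not unique in its group, was lowest. Mrps25 fell by 0.49, Mrps6 by 0.42, Mrpl19 by 0.38, Mrps22 by 0.36, Mrps18b by 0.34 and Mrps2 by 0.19 on the log2 scale, each without overlap. The number lower was 3 without CTRL1, CTRL3, CTRL4 or SOMA3, 4 without SOMA1, 0 without SOMA4 and 15 without CTRL2. With offsets for length and GC content it was 23, against 20.9% of genes lower. Among related lists 11 of 77 cytosolic ribosomal proteins were higher (median 0.35), a share below the 16% of all genes, while 10 of 15 glycolysis genes (-1.03) and 13 of 25 nucleolar genes of ribosome biogenesis (-0.32) were lower, against 13.4%.

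By symbol, the medians of the large and small subunit genes differed by at most 0.16 on the log2 scale in the 8 comparisons. The large minus the small median log2 fold change was 0.01 in DIR against CTRL, -0.01 in SOMB against SOMA, -0.01 in SOMC against SOMB, 0.01 in SOMD against SOMC, -0.02 in SOMD against SOMA, 0.04 in MUT against WT and -0.09 in CTRL against SOMA. The widest gap was that 0.16, in WT against SOM, where the medians were -0.95 over 47 large and -1.10 over 29 small subunit genes, with 34 and 25 lower. With offsets for transcript length and GC content the gap between medians was 0.03, while the means were -0.60 (large) and -0.81 (small). Without offsets the means were -1.1 and -1.26. With offsets for coding length and GC content the medians were -0.49 and -0.625, so the gap depended on the length used. Counting Mrps30 and Mrps18a with the large subunit and leaving out Mrps36, as structures have it, gave a gap of 0.21 without offsets. Single members ran from -3.71 to 0.35 in the large and from -3.90 to 0.13 in the small subunit in WT against SOM. The difference between the subunits was not tested.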

How the data were processed

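The authors deposited whole-number counts per gene, from 29 TruSeq RNA v2 libraries (11 PCR rounds, no strand marking, per the labels). The submitters' processing notes name mm10, HTSeq 0.6, TopHat2 2.0.9, Cufflinks and DESeq2 1.10; annotation and strand setting: not given in the sources used here. The 5 HTSeq summary lines stayed out of library sizes. Of 23337 symbols 22844 matched GENCODE M21, 1891 of them by synonym.

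Counts were filtered (filterByExpr, minimum 10, total 15), TMM scaled and tested with edgeR 4.0.16 (quasi-likelihood, prior count 0.125, R 4.3.3), adjusted by Benjamini-Hochberg over all genes, threshold 0.05. The SOM libraries, DIR with CTRL, and MUT with WT each had a fit; CTRL against SOMA and WT against SOM used all 29. Pseudogene matches were found with BLAST 2.17.0, without masking of interspersed repeats. Group levels are CPM after TMM; the pseudocount for medians per library and differences between cultured libraries was 0.5. Errors are SD of levels and SE of fold changes. The model was tested on simulated data.

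Named members are all that passed in a comparison up to 12, else the 6 higher and 6 lower of lowest p, else the 3 of lowest p; the 5 highest and 5 lowest per kilobase; the 5 largest and 3 smallest ranges; and the Mrps18 paralogues. Other genes are the 3 of lowest p in a list and a fixed regulator set; the members with the largest gap between cultured libraries were chosen after seeing their values. The members, lists and tests were chosen with earlier results of these data known. Alternatives were RLE factors, library totals, no filter, DESeq2 1.42.0, replicate block, length and GC offsets (loess span 0.5), other sets of libraries in the fit, technical shares as terms, pairs summed, and each library left out. Those over coding length, over or under 20% not unique, few reads in no feature, Xist, principal transcripts and subunit by structure were chosen after seeing the data. Same-numbered samples deviated together in each pair only for SOMB against SOMA (3 pairs, correlation 0.349 to 0.410) and SOMD against SOMC (4 pairs, 0.370 to 0.471); the labels state no pairing.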

Additional observations from a re-analysis of the deposited data

Results flagged for a closer look

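In 205 groups of 4 libraries tested by Dixon's ratio over 39 named members and 2 summaries, 17 held a library far from the other 3, where chance alone gives about 1 in 20. The members of SOMC3 summed to 4284 CPM (others 3530 to 3618) and those of SOMD3 to 4036 CPM (others 3436 to 3530). In SOMC3 the levels of Mrpl19 (70.24 CPM, others 55.9 to 57.9), Mrpl36 (34.6, others 27.6 to 28.3), Mrpl39 (78.71, others 63.0 to 64.9), Mrpl42 (83.47, others 64.8 to 66.0), Mrps18b (39.42, others 34.7 to 35.2) and Mrps33 (46.07, others 34.5 to 36.3) were high, as was Mrps33 in SOMD3 (43.27, others 38.8 to 39.4). The other 3 SOMC libraries include the near-identical pair SOMC1 and SOMC4, and the other 3 SOMD libraries include SOMD1 and SOMD4, which narrows the range the ratio is taken over. Mrps12 was low in SOMC4 (30.92 CPM, others 33.2 to 33.5).

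CTRL1 stood low in Mrps12 (6.708 CPM, others 31.3 to 32.6), Mrps26 (20.57, others 41.2 to 44.2) and Mrpl37 (55.01, others 69.6 to 72.2); it is also the CTRL library with over 20% of alignments not unique. DIR3 was high in Mrps18b (35.19 CPM, others 30.3 to 31.0). SOMB2 was high in Mrps2 (73.61 CPM, others 63.5 to 65.2) and Mrps6 (30.93, others 20.3 to 22.1). In SOMB4 the median of the large minus that of the small subunit genes was 0.2478 on the log2 scale (others 0.182 to 0.189).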

How the results depend on the processing

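No called result changed sign under any alternative. In DIR against CTRL 7 members were higher with all libraries in 1 fit, and the median was 0.3497 with the share of alignments not unique as a term. In SOMD against SOMA 1 was higher under each of 3 offset settings; the number lower was 0 with all libraries in 1 fit or with only libraries of few reads in no feature, 1 with pairs summed and 4 with that share as a term. In MUT against WT the number higher was 5 with library totals, 7 with no filter, 17 with DESeq2, 9 with the replicate block, 5 with block and offsets, and 0 with length and GC offset, with coding length offset, with all libraries in 1 fit or with Xist as a term; the median was 0.1445, 0.1369 and 0.1502 with the 3 offset settings (length, block with length, coding length). In CTRL against SOMA the number higher was 4 with library totals or coding length offset and 1 with only the groups compared; the number lower was 11 with RLE factors, 4 with library totals, no filter or pairs summed, 13 with DESeq2, 23, 24 and 22 with the 3 offset settings and 3 with only the groups compared. In WT against SOM the number higher was 6 with library totals, 13, 13 and 12 with the offsets and 4 with only the groups compared. The median with the 3 offset settings was -0.4949, -0.4996 and -0.5357. The large minus small median was 0.03262 and 0.009357 with the first pair of offsets. With the coding length offset the large and small medians were -0.4873 and -0.625. By library totals the median log2 ratio of WT to SOM levels was -0.8529, and over principal transcripts 3 of the 5 highest members were shared. The cause of these shifts was not tested. Leaving out 1 library gave ranges for members higher of 0 to 4 (MUT against WT), 2 to 3 (CTRL against SOMA) and 1 to 4 (WT against SOM), for members lower of 0 to 3 (SOMD against SOMA), 0 to 15 (CTRL against SOMA) and 56 to 59 (WT against SOM), and 0 for the rest. Medians ran from 0.004615 to 0.2736 (DIR against CTRL), -0.04374 to 0.1287 (SOMB against SOMA), -0.1986 to -0.01486 (SOMC against SOMB), -0.07992 to 0.03726 (SOMD against SOMC), -0.1466 to -0.04464 (SOMD against SOMA), 0.2205 to 0.3033 (MUT against WT), -0.2157 to -0.009549 (CTRL against SOMA) and -1.075 to -0.913 (WT against SOM). Large minus small ran from -0.02903 to 0.09253, -0.0237 to -0.004971, -0.03647 to -0.001096, -0.02137 to 0.02882, -0.05422 to -0.009858, 0.02769 to 0.1074, -0.1071 to -0.0577 and 0.1064 to 0.2233 in the same order. Over the alternatives with a test, other than leaving out libraries, the genes called higher and lower ran from 36 to 801 and 56 to 681 (DIR against CTRL), 343 to 875 and 412 to 847 (SOMB against SOMA), 1 to 161 and 4 to 136 (SOMC against SOMB), 1 to 311 and 2 to 257 (SOMD against SOMC), 720 to 1977 and 654 to 1950 (SOMD against SOMA), 0 to 476 and 0 to 214 (MUT against WT), 1694 to 2933 and 1244 to 3231 (CTRL against SOMA) and 4985 to 5877 and 4123 to 5053 (WT against SOM). Besides MUT against WT, where same-number correlations were 0.00339 to 0.304 and the numbers do not pair the samples, the block changed no count of members by over 1.5 times; of all genes it called 195 lower in place of 63 in DIR against CTRL, and 102 higher and 77 lower in place of 67 and 47 in SOMC against SOMB. Of the results followed for single members, 29 were weaker, 3 stronger and 323 the same under the other alternatives. On leaving out a library 48 were weaker and 278 the same. Not every member was followed, and the members gained under some settings are in the counts above. On simulated counts a 2-fold change was recovered in 48% of genes for DIR against CTRL and 93% for MUT against WT, and a change of 0.5 on the log2 scale in 1% and 42%, so changes of the size seen in single members in culture were hardly detectable.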
